A study of Mus musculus with 14 samples.

Results

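The genes described here are 6 effectors and feedback genes of the Notch pathway, Hes1, Hes5, Hes6, Hey1, Heyl and Nrarp, chosen by gene symbol from the 31054 genes of the deposited single-cell tables, by a rule that names them and sets no threshold on measured values, though earlier results of these data were known when they were chosen. They were read in all 14 libraries of a study of the Atoh1 lineage in the mouse hindbrain, in which TdTomato+ cells were sorted and profiled with the 10x Genomics 3′ assay, which counts unique molecular identifiers (UMIs). Control embryos were Atoh1Cre/+; Rosa lsl-tdTomato/+ and mutant embryos were Atoh1Cre/S193A; Rosa lsl-tdTomato/+, called Atoh1S193A/- here. Whole hindbrains of 3 control and 3 mutant embryos were taken at E14.5 and again at E18.5, which are embryonic days, with 1 embryo per library and a littermate control for each mutant, and the pontine nuclei (PN) region of control pups, pooled within each of 2 libraries, was taken at postnatal day 5 (P5). The Cre replaces the coding region of 1 Atoh1 copy, so control and mutant cells both lack 1 functional copy of Atoh1, and the mutant's other copy carries a serine-to-alanine change that lowers its function. P5 samples hold no mutant and come from another dissection, so they entered no test.

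Notch is a receptor that is cut when a ligand on a neighbouring cell binds it, and its freed inner part joins the DNA-binding protein RBPJ to switch on target genes. In the developing brain the best known targets are Hes1 and Hes5, basic helix-loop-helix repressors that hold neural progenitors back from becoming neurons by repressing proneural genes such as Atoh1. Hey1 and Heyl encode related repressors, Nrarp encodes a Notch-induced protein that damps the pathway, and Hes6 is the relative that Notch does not induce: it is associated with proneural factors and with cells that leave the progenitor state.

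After filtering, 80250 cells were kept of 150188 deposited barcodes, 34425 at E14.5, 31819 at E18.5 and 14006 at P5. The deposited libraries held between 108239001 and 236964126 UMIs, and the median kept cell held between 12010.5 and 20922 UMIs depending on the library. Libraries shared between 13 and 67 cell barcodes with one another, 0.163% to 0.624% of the smaller library. Atoh1 itself, read as UMIs of a gene summed over cells and scaled to 1000000 UMIs in all (CPM), stood at 137, 55.0 and 57.5 CPM in E14.5 control libraries 1 to 3 and at 144, 86.2 and 100 CPM in their mutant littermates. In PN progenitor-like cells it was lower in the mutant of all 3 pairs (229, 192 and 130 against 156, 171 and 119 CPM). The 3′ counts do not read the altered codon, so they do not check the genotype labels. Both libraries of E14.5 littermate pair 2 held another mix of cells than the other 4. They had fewer cells of the cycling Hox-low class described below, fewer differentiated PN-like neurons and more rostral neuron-like cells. The E14.5 genotype changes of Hes1 and Hes5 that matter most are given with pairs as blocks and without the pair. The interactions were not run without it. Per the file headers, E14.5 control libraries 1 and 2 were counted with Cell Ranger 3.1.0 and the other 12 libraries with 5.0.1, so version and genotype cannot be told apart in E14.5 pairs 1 and 2, and littermate pair 3 is the E14.5 pair counted alike.

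Cells were clustered without the 6 genes and without the other genes listed for the Notch pathway, and clusters were called by fixed markers. Of 31 clusters at each stage, 15 at E14.5, 17 at E18.5 and 14 at P5 stayed unnamed. So did 7 of the 16 sub-clusters of E18.5 PN-like cells. Levels by class and state therefore cover named clusters only, while sums over all kept cells include the unnamed ones. PN-like clusters were high in at least 4 of the 6 PN lineage markers Barhl1, Pax6, Hoxb2, Hoxb3, Hoxb4 and Hoxb5. At E14.5 the PN-like cells (3345 control and 4020 mutant cells) fell into 5 states. The known order held only in part in the control means. Ccnd1, a cell cycle gene, was at 1275 CPM in progenitor-like cells and 6.45 CPM in migrating neuron-1-like cells. Its differentiated neuron-like mean was higher again, at 36.5 ± 27.9 CPM (SD, n = 3). Mapt, a neuronal microtubule gene, rose from 26.1 CPM in progenitor-like cells to 1362 CPM in differentiated neuron-like cells. Nhlh1, a gene of early neurons, was highest in migrating neuron-2-like cells, at 200 CPM. The paper describes its migrating neurons-1 as low in Atoh1. Here migrating neuron-1-like cells held 498 ± 119 CPM of Atoh1, beside 596 ± 136 CPM in intermediate progenitor-like cells. A second class of dividing cells was taken by rule: Mki67 over 200 CPM, Barhl1 over 80 CPM, Pax6 over 300 CPM and Hoxb3 under 20 CPM. The rule was written with dividing granule cell progenitors of the cerebellum in mind, but cell cycle genes led these clusters, and the marker list that the E14.5 cluster matched best was that of unipolar brush cells, so the cells are called cycling Hox-low after the rule, whose limits were chosen once cluster means were known.

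The 6 genes are spread over 5 chromosomes in the GRCm38 annotation. Hes5 lies at chr4:154960923-154962371 on the plus strand, Hes1 at chr16:30064384-30067796 (plus), Hes6 at chr1:91411483-91414038 (minus), Hey1 at chr3:8663359-8667256 (minus), Heyl at chr4:123233556-123249875 (plus) and Nrarp at chr2:25180758-25183339 (plus). The 250 bases before the start of Hes5, Nrarp and Hes6 are printed, the 3 members matched in the promoter table, as background to the control of these genes by Notch and by Hes repressors. They come from RefSeq (GRCm38.p6), at chr4:154960673-154960922 on the plus strand, chr2:25180508-25180757 on the plus strand and chr1:91414039-91414288 on the minus strand, each 5′ to 3′ along its gene. Capitals mark TGGGAA, the core of the RBPJ binding motif, on either strand.
Hes5: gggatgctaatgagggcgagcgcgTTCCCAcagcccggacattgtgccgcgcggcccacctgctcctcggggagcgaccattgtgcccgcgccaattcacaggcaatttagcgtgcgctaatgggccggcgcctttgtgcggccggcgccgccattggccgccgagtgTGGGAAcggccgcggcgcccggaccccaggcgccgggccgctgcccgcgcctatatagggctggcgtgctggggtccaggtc
Nrarp: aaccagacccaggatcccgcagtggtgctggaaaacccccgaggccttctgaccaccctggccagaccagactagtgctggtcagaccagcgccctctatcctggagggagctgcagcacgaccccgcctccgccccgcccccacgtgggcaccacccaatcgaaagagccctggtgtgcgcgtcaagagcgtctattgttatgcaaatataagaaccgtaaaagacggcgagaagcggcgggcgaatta
Hes6: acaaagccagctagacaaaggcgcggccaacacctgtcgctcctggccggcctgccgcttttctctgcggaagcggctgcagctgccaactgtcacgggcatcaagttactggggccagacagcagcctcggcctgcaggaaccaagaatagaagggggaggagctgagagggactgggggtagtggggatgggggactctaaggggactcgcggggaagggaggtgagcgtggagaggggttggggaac
The Hes5 stretch held 2 such matches, and the Nrarp and Hes6 stretches held 0. Of 32851 RefSeq promoter stretches of the same length, 21.6% held TGGGAA at least 1 time and 2.77% at least 2 times. CACNAG, the N-box that Hes repressors can bind, occurred 2 times in the Nrarp stretch and 0 times in those of Hes5 and Hes6, while 36.7% of all stretches held it. The table holds another start of Hes6, whose stretch (chr1:91413223-91413472, not printed) held CACNAG 1 time and TGGGAA 0 times.

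Along the PN lineage at E14.5, Hes1, Hes5, Hes6 and Hey1 differed in the states where they were highest. Hes1 marked progenitor-like cells, Hes5 was shared by progenitor-like and intermediate progenitor-like cells, Hes6 peaked in intermediate progenitor-like cells, Hey1 in intermediate progenitor-like and migrating neuron-1-like cells, Nrarp stayed low throughout and Heyl was nearly absent. These levels are a description, since the states were formed from the same cells, and levels are compared within a gene only.

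Hes1 stood at 497, 564 and 375 CPM in progenitor-like cells of control libraries 1, 2 and 3, a mean of 479 ± 95.5 (SD, n = 3). In intermediate progenitor-like cells it was 196, 389 and 177 CPM, and in migrating neuron-1-like cells 32.6, 58.3 and 23.1 CPM. It then reached 1.95 ± 0.431 CPM in migrating neuron-2-like cells and 1.23 ± 0.481 CPM in differentiated neuron-like cells. Library 2 was highest in the first 3 states, and its intermediate progenitor-like value overlapped the progenitor-like range, while the next 2 steps down had no overlap. With every cell thinned to 5000 UMIs, 81.5% of progenitor-like cells had a Hes1 UMI, 47.0% of intermediate progenitor-like cells and 9.07% of migrating neuron-1-like cells, against 0.974% of differentiated neuron-like cells, which serve as the background of free RNA (unthinned, 94.5%, 64.0%, 19.0% and 2.25%). The median depth of the 4 states lay between 13616 and 21378.5 UMIs per cell.

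Hes5 stood at 812, 546 and 637 CPM in progenitor-like cells and at 1211, 788 and 650 CPM in intermediate progenitor-like cells. The 2 ranges overlapped. Its level in migrating neuron-1-like cells was 148, 207 and 65.3 CPM, and the migrating neuron-2-like mean was 3.57 ± 0.871 CPM, both steps down without overlap. In thinned cells, 56.4% ± 10.6 of progenitor-like cells had UMIs of both Hes1 and Hes5, and 39.3% ± 10.9 of intermediate progenitor-like cells did (SD, n = 3). Cells with Hes5 and no Hes1 UMI made up 13.5% of progenitor-like cells and 40.9% of intermediate progenitor-like cells.

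Hes6, the relative linked to neuronal commitment, ran the other way at first. It was at 323, 339 and 231 CPM in progenitor-like cells and 868, 896 and 614 CPM in intermediate progenitor-like cells, then 510, 632 and 328 CPM in migrating neuron-1-like cells. The rise from progenitor-like to intermediate progenitor-like cells had no overlap between libraries. Hes6 dropped to 81.4 ± 27.5 CPM in migrating neuron-2-like cells and was 164 ± 12.4 CPM in differentiated neuron-like cells, which does not overlap the value before it. The genes that Notch induces and Hes6 were often found in the same cell. A Hes6 UMI together with a UMI of Hes1 or Hes5 was seen in 85.4% of thinned intermediate progenitor-like cells. The share was 46.1% in progenitor-like and 1.08% in differentiated neuron-like cells. Hes6 UMIs of any kind were seen in 97.2%, 48.7% and 57.7% of these cells, in the same order. Whether the genes met more often than their single shares give was not tested.

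Within the progenitor-like cells, Hes1 and Hes6 also differed between sub-clusters led by genes of different cell cycle phases. The sub-cluster led by the replication genes Mcm3, Hells and Mcm6 had Hes1 at 558 ± 102 CPM and Hes6 at 144 ± 60.0 CPM. The sub-cluster led by the mitotic genes Ube2c, Cenpf and Cenpa had Hes1 at 365 ± 126 CPM and Hes6 at 491 ± 77.4 CPM. Hes5 hardly differed between these groups of cells, at 628 ± 147 CPM and 707 ± 48.6 CPM.

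Hey1 was low in progenitor-like cells (37.0, 42.8 and 21.2 CPM) and high in the next states, with 272, 118 and 166 CPM in intermediate progenitor-like and 285, 211 and 178 CPM in migrating neuron-1-like cells. The values of the latter 2 states overlapped, and both lay above all progenitor-like values. It then averaged 45.3 ± 17.0 CPM (migrating neuron-2-like) and 8.85 ± 3.05 CPM (differentiated neuron-like). Nrarp, the feedback inhibitor, was at 16.8, 11.0 and 11.8 CPM in progenitor-like cells and between 3.44 and 10.2 CPM in single libraries of the other 4 states, all below the lowest progenitor-like value. The differentiated neuron-like values (6.91 to 7.73 CPM) also lay above those of migrating neuron-2-like cells (4.02 to 6.66 CPM), and the other neighbours overlapped. Heyl gave 0 UMIs in progenitor-like, intermediate progenitor-like and both migrating states of all 3 control libraries, where 3 UMIs would have been between 0.263 and 6.11 CPM, and 1 UMI in differentiated neuron-like cells.

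**Figure D1:**
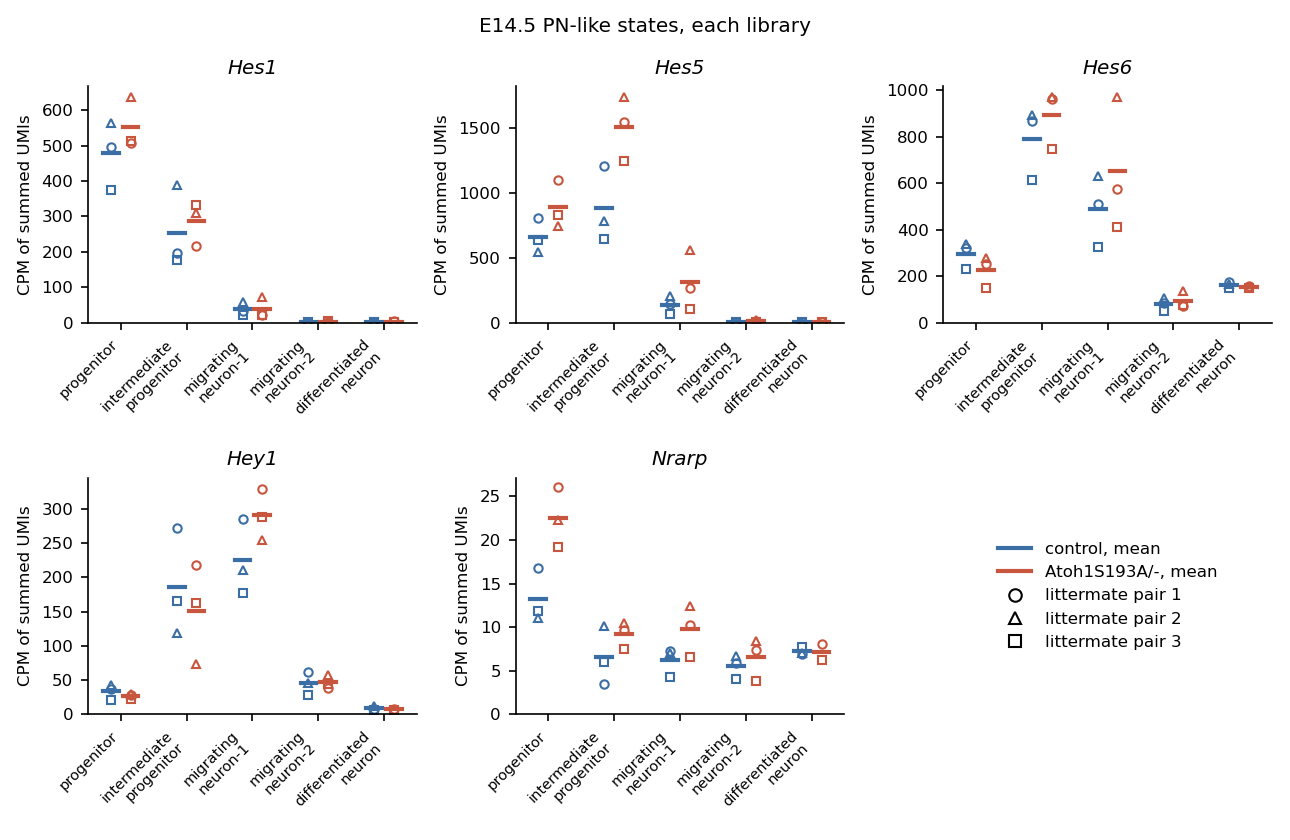
Levels of 5 genes in the 5 E14.5 PN-like states (x axis) as CPM of UMIs summed per library (y axis, from 0), with 1 symbol per library, the symbol shape giving the littermate pair, and bars at the means of control and Atoh1S193A/- libraries. Hes1 is highest in progenitor-like cells, Hes6 in intermediate progenitor-like cells and Hey1 in intermediate progenitor-like and migrating neuron-1-like cells.

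The receptors and ligands had an order of their own in the same control cells. The receptor Notch1 averaged 107, 71.2 and 15.3 CPM in progenitor-like, intermediate progenitor-like and migrating neuron-1-like cells. The ligand Dll1 was highest in intermediate progenitor-like cells, at 71.2 CPM, and Dll3, a ligand that acts within its own cell, was at 3.39 CPM in progenitor-like and 197 CPM in migrating neuron-1-like cells. Rbpj, the nuclear partner, varied less, between 56.1 and 153 CPM over the 5 states. Atoh1 was at 184 ± 49.9, 596 ± 136 and 498 ± 119 CPM (SD, n = 3) in progenitor-like, intermediate progenitor-like and migrating neuron-1-like cells. Of the 5 states, intermediate progenitor-like cells had the highest means of Hes5, Hes6 and Atoh1, though their Hes5 range overlapped that of progenitor-like cells.

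Outside the PN lineage, E14.5 control classes ranged from Hes1 levels like those of progenitor-like cells to nearly none. Roof plate or dorsal rhombic lip-like cells had Hes1 at 501, 515 and 437 CPM, in the range of PN progenitor-like cells, and Hes5 at 532, 424 and 358 CPM. Among the named classes, glia or radial glia-like cells led in Hes5, at 2366, 1204 and 1581 CPM. They also led in Nrarp, at 73.2, 98.0 and 90.9 CPM, the latter without overlap with any other named class. Their Hes1 was 354 ± 94.4 CPM. A further 2 small clusters with Ttr, which encodes a transport protein of the choroid plexus, among their leading genes broke the pairing of Hes1 and Hes5: one had Hes1 at 432 ± 72.3 CPM with Hes5 at 3.66 ± 0.724 CPM (2 libraries, 72 cells), and the other had Hes1 at 357 ± 67.4 CPM with Hes5 at 19.9 ± 15.6 CPM (3 libraries, 49 cells).

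Cycling Hox-low cells at E14.5 divided with little Hes1. Their 3 control libraries gave 34.2, 35.1 and 27.4 CPM, all below the lowest progenitor-like value, and Hes5 was 111, 44.0 and 90.5 CPM. Hes6 was high in them, at 776, 857 and 506 CPM, which overlapped the intermediate progenitor-like range, and 91.2% of the thinned cells had a Hes6 UMI against 11.6% with a Hes1 UMI. Mki67, a marker of dividing cells, was at 397 CPM in them and at 245 CPM in PN progenitor-like cells. Unipolar brush cell-like cells resembled them in Hes6 (764, 820 and 472 CPM) and had more Hes5 (352, 239 and 238 CPM) and more Hes1 (64.6, 103 and 60.3 CPM), both without overlap. Granule neuron-like cells still held Hes6 at 443 ± 97.2 CPM with Hes1 at 3.59 ± 1.69 CPM, and rostral, caudal and inhibitory neuron-like cells had Hes1 between 0.964 and 3.54 CPM on average.

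Heyl was a gene of other cells. Of its 49 UMIs in 16168 E14.5 control cells, 37 came from the 48 fibroblast-like cells of libraries 2 and 3, where it was at 57.0 and 58.2 CPM. Library 1 had 8 such cells, too few to be summed. These cells, which lead with collagen genes such as Col3a1, also had Hes1 at 297 ± 70.7 CPM and Hes5 at 0 and 25.5 CPM. At E18.5, 7 Heyl UMIs were counted in 15334 control cells. At P5 its 305 UMIs in 14006 cells included 189 in astrocyte-like cells, at 27.3 and 35.5 CPM, and 67 in fibroblast-like cells, at 57.0 and 14.8 CPM.

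**Figure D2:**
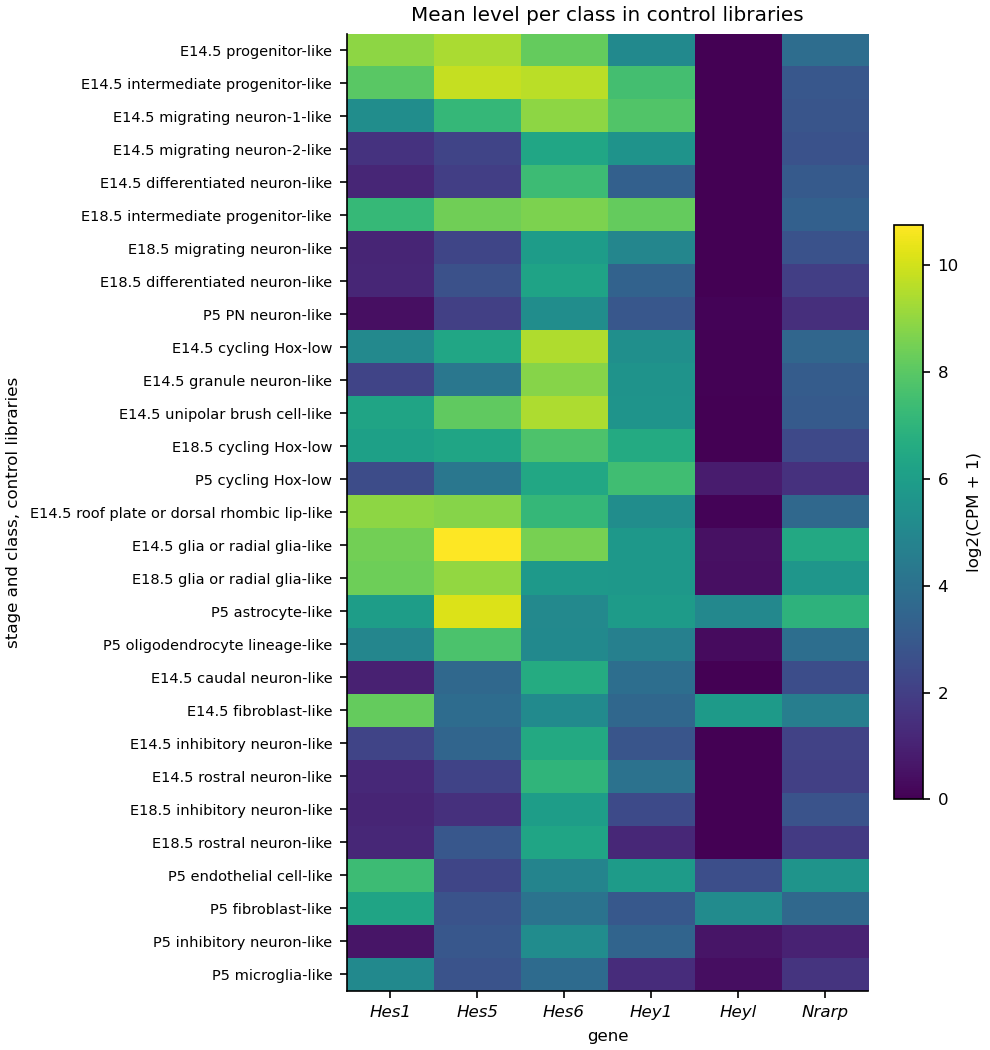
Mean level of each gene (columns) in each stage and class of control libraries (rows), coloured by log2(CPM + 1), with PN lineage rows on top. Hes1 and Hes5 are high together in progenitor-like, roof plate-like and glia-like rows, and Heyl is seen in fibroblast-like and P5 astrocyte-like rows.

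At E18.5 no PN progenitor-like cluster met the marker rule, and 59 intermediate progenitor-like cells were found, of which only 3 libraries held at least 10. Hes1 was at 92.8 and 198 CPM in control libraries 1 and 2 and at 44.5 CPM in mutant library 1, Hes5 at 290, 397 and 584 CPM, and Hey1 at 348, 246 and 325 CPM, in the same order, with no test. Migrating and differentiated neuron-like cells of the E18.5 controls had Hes1 at 1.17 ± 0.930 and 1.22 ± 1.70 CPM. Their Hes6 was at 76.2, 66.7 and 40.4 CPM in migrating and at 73.5 ± 3.87 CPM in differentiated neuron-like cells. Hey1 separated the latter states, with 35.3, 37.4 and 14.8 CPM in migrating and 10.4, 10.6 and 6.87 CPM in differentiated neuron-like cells. At P5, PN neuron-like cells (7470 cells) were at 0.457 and 0.285 CPM for Hes1, 3.04 ± 1.16 CPM for Hes5 and 37.7 ± 5.57 CPM for Hes6, and a Hes6 UMI was seen in 17.3% of thinned cells against 6.24% of microglia-like cells, which served as the reference (unthinned, 64.0% against 13.1% and 14.9% in the 2 libraries of microglia-like cells). For Hes5 the shares were 1.66% and 2.73%, at or below that reference, so its few UMIs in PN neurons are read as background. The median depths were 28547 and 32315 UMIs in the former cells and 10955.5 and 11564 UMIs in the latter.

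Glial cells kept Hes5 to the last stage. It was at 610, 385 and 552 CPM in E18.5 control glia or radial glia-like cells and averaged 1146 ± 155 CPM in the 2 libraries of P5 astrocyte-like cells, while Hes1 averaged 328 ± 141 CPM in the former and 61.3 ± 4.59 CPM in the latter. The dissections differ between these stages, so stage and tissue cannot be told apart there. Within the oligodendrocyte lineage at P5, a cluster led by Pdgfra, a gene of its precursors, had Hes5 at 623 ± 273 CPM and Nrarp at 37.4 ± 10.5 CPM. Endothelial cell-like cells, in 1 library, had Hes1 at 164 CPM and Nrarp at 46.2 CPM.

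The genes whose control profile over the 29 classes was most like that of each member, among 11510 genes, were Notch1 for Hes1 (Pearson r = 0.94 on the log scale), Dars for Hes5 (0.91), Ilkap for Hes6 (0.91), Xrcc5 for Hey1 (0.84), Foxs1 for Heyl (0.96) and Lrig1 for Nrarp (0.85). These r values describe the profiles only, since classes of 1 library share its cells, depth and batch.

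The first comparison asked whether reduced Atoh1 function changed these genes within a PN state at E14.5. Hes5 was higher in the mutant of every littermate pair measured in all 5 states (3 pairs each, and 2 in differentiated neuron-like cells), but no member passed the unpaired test (edgeR quasi-likelihood, Benjamini-Hochberg adjusted p under 0.05 and absolute log2 change over 0.25). In migrating neuron-2-like and differentiated neuron-like cells Hes5 was low, and the part of free RNA in its level was not tested. When littermates were treated as pairs, Hes5 passed in 3 states and Hes6 fell in progenitor-like cells.

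In intermediate progenitor-like cells Hes5 rose from 1211, 788 and 650 CPM in controls to 1547, 1741 and 1250 CPM in mutants. All mutant libraries lay above all controls, although pair 2 rested on only 29 and 35 cells. The log2 change was 0.76 ± 0.19 (SE, edgeR adjusted p = 0.349) without pairing and 0.78 ± 0.12 (adjusted p = 0.00205) with it. None of the 5 members tested passed without pairing, where 0.0659% of all genes did, and 1 passed with it, where 1.26% did. DESeq2 without pairing also called Hes5, at an adjusted p of 0.0498. Thinned cells with UMIs of both Hes1 and Hes5 made up 39.3% ± 10.9 in controls and 54.9% ± 6.85 in mutants (SD, n = 3), with no test. Those with a Hes1 and no Hes5 UMI made up 7.66% and 1.97%. Hes6 was higher in the mutant of all 3 pairs in this state (965, 971 and 746 CPM) and Hey1 lower (218, 73.7 and 163 CPM), with paired log2 changes of 0.17 ± 0.092 and -0.26 ± 0.12 that did not pass. Without pair 2 the unpaired change was 0.60 ± 0.23. Against control library 3 alone, counted like the mutants, it was 1.17 ± 0.22, an SE that assumes the lone control varies like the mutants and supports no test of the version.

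In progenitor-like cells Hes5 was at 812, 546 and 637 CPM in controls and 1101, 745 and 829 CPM in mutants, higher in all 3 pairs with overlapping ranges. The paired log2 change was 0.38 ± 0.073 (edgeR adjusted p = 0.0197), against an adjusted p of 1.00 without pairing, and without pair 2 the unpaired change was again 0.38 ± 0.17. Hes6 was at 323, 339 and 231 CPM in controls and 252, 277 and 151 CPM in mutants, lower in all 3 pairs, with a paired log2 change of -0.46 ± 0.081 (edgeR adjusted p = 0.0127), and an unpaired one of -0.49 ± 0.24 without pair 2 that did not pass. Nrarp was at 16.8, 11.0 and 11.8 CPM in controls and 26.0, 22.3 and 19.2 CPM in mutants. These Nrarp groups did not overlap, but the log2 change of 0.76 ± 0.22 did not pass (edgeR adjusted p = 1.00, and 0.0888 with pairing), and it was 0.63 ± 0.28 without pair 2. The paper reports Hes1 and Hes5 as up-regulated in its mutant progenitors, by a test on single cells (MAST). Here Hes1 was at 497, 564 and 375 CPM in controls and 508, 637 and 514 CPM in mutants, higher in all 3 pairs with overlapping ranges. Its log2 change of 0.16 ± 0.14 was small, and Hes1 was not called with or without pairing. Without pairing 0.00989% of all genes passed in these cells, and with it 0.88%, while 0 and 2 of the 5 members did.

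In migrating neuron-1-like cells Hes5 was at 148, 207 and 65.3 CPM in controls and 267, 560 and 109 CPM in mutants. The spread between pairs was wider than the difference within them, and the groups overlapped. The log2 change was 1.11 ± 0.55 (edgeR adjusted p = 0.982) without pairing and 0.99 ± 0.11 (adjusted p = 0.000312) with it, and 0.79 ± 0.40 unpaired without pair 2. No gene passed without pairing (0% of all genes, 395 genes had an unadjusted p under 0.05, and DESeq2 called 18), and 0.999% passed with it, which included 1 of the 5 members. Hes6, Hey1 and Nrarp were also higher in the mutant of all 3 pairs in these cells and did not pass, with paired log2 changes of 0.34 ± 0.078, 0.35 ± 0.090 and 0.60 ± 0.23 (edgeR adjusted p = 0.061, 0.0952 and 0.313). Hes1 was at 32.6, 58.3 and 23.1 CPM against 21.8, 73.3 and 21.6 CPM, higher in the mutant of 1 pair.

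In migrating neuron-2-like cells, which had nearly lost the gene in controls, Hes5 was at 4.46, 2.72 and 3.52 CPM against 11.0, 24.6 and 7.12 CPM in mutants. All mutant libraries were above all controls, and the log2 change was 2.08 ± 0.47, yet the edgeR adjusted p was 1.00 without pairing and 0.104 with it, while DESeq2 gave 0.0103. Without pair 2, whose mutant library was the highest, the change was 1.12 ± 0.31. In differentiated neuron-like cells Hes5 was at 4.74, 0.872 and 3.39 CPM in controls and 8.80 and 6.63 CPM in mutant libraries 1 and 3, a log2 change of 1.03 ± 0.31 (edgeR adjusted p = 0.927). Mutant library 2 had 4 such cells and was left out, the value of control library 2 was 1 UMI, and without that library too the change was 0.92 ± 0.28. Both states had 0% of all genes called and 0 of 4 members tested, where 239 and 363 genes had an unadjusted p under 0.05 and DESeq2 called 5 and 0. In thinned migrating neuron-2-like cells a Hes5 UMI was seen in 1.36%, 1.21% and 1.36% of control cells and 4.69%, 5.45% and 2.41% of mutant cells (unthinned, means of 5.42% and 13.5%). Outside the PN lineage, thinned cells with a Hes5 and no Hes1 UMI made up 2.05% of control and 3.62% of mutant rostral neuron-like cells. The shares were 3.79% and 5.30% in inhibitory neuron-like cells, and 6.06% and 3.70%, the other way, in caudal neuron-like cells. The part of free RNA in all these shares, and in the Hes5 levels of differentiated neuron-like cells, was not tested.

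Of the 36 listed Notch pathway genes, 28 were tested in progenitor-like, 29 in intermediate progenitor-like and 27 in migrating neuron-1-like cells. Without pairing 0 of them passed, beside 0.00989%, 0.0659% and 0% of all genes. The listed genes had median log2 changes of -0.03, 0.14 and 0.01, beside medians of 0.00, 0.00 and 0.01 over all genes. Of all genes, 0.88%, 1.26% and 0.999% passed with pairing in these states, in the same order. With pairing, intermediate progenitor-like cells had Notch1 up by 0.85 ± 0.13, Dll1 by 1.01 ± 0.12 and Jag1 by 1.16 ± 0.24 on the log2 scale (edgeR adjusted p = 0.00286, 0.000209 and 0.0216). In migrating neuron-1-like cells Notch1 and Dll1 rose with pairing, by 0.88 ± 0.17 and 1.24 ± 0.20, and in progenitor-like cells Mfng, which modifies the receptor, fell by 1.06 ± 0.15 (edgeR adjusted p = 0.0232, 0.00813 and 0.00325). A further 2 genes that differ along the lineage changed in the same intermediate progenitor-like cells: Ccnd1 rose by 1.45 ± 0.11 and Nhlh1, a gene of early neurons, fell by 1.77 ± 0.27 (edgeR adjusted p with pairing = 2.11e-06 and 0.00228). The paper names Nhlh1 as a direct Atoh1 target, so position and Atoh1 activity cannot be told apart in it. Atoh1 was at 753, 525 and 510 CPM in controls and 721, 549 and 591 CPM in mutants of this state. Whether a shift of cells within the state had a part in the Hes5 difference was not tested.

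At E18.5, migrating and differentiated neuron-like cells could be tested for 2 members, Hes6 and Hey1, and neither passed. Hes6 in differentiated neuron-like cells was at 74.3, 76.9 and 69.3 CPM in controls and 72.1, 77.5 and 71.9 CPM in mutants, a log2 change of 0.00 ± 0.09. Hey1 in migrating neuron-like cells was at 35.3, 37.4 and 14.8 CPM against 44.0, 29.4 and 9.78 CPM, a log2 change of 0.04 ± 0.38 that leaves a wide range of sizes possible. Of all genes, 0% passed in migrating neuron-like cells (417 at an unadjusted p under 0.05, 3 called by DESeq2) and 0.029% in differentiated neuron-like cells, with 0 of 2 members in each.

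Summed over all kept cells, the E14.5 mutants held far more Hes1 and Hes5. Hes1 was at 69.8, 49.7 and 44.1 CPM in controls and 142, 119 and 157 CPM in mutants, and Hes5 at 203, 59.8 and 77.9 CPM against 349, 119 and 241 CPM. The Hes1 groups did not overlap, and each mutant library was above its littermate for both genes. The Hes1 log2 change was 1.34 ± 0.19 (edgeR adjusted p = 0.148 without pairing), and 1.35 ± 0.14 with pairing (adjusted p = 0.0047), while DESeq2 called it without pairing at an adjusted p of 2.73e-08, and the unpaired change was 1.39 ± 0.22 without pair 2 and 1.60 ± 0.23 against control library 3 alone. With pairing Hes5 rose by 1.10 ± 0.15 and Nrarp by 0.40 ± 0.067 (edgeR adjusted p = 0.00723 and 0.0122), whereas Hes6 and Hey1 were not called. Without pair 2 the unpaired changes of Hes5 and Nrarp were 1.07 ± 0.46 and 0.38 ± 0.24 and did not pass. Without pairing 0.00977% of all genes passed and 0 of 5 members; with it 17.6% and 3 of 5. In summed counts, more cells of a kind and more RNA per cell cannot be told apart.

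The cell makeup moved in the same direction. The 7 E14.5 clusters whose control mean of Hes1 was over 200 CPM (PN progenitor-like, roof plate or dorsal rhombic lip-like, glia or radial glia-like, fibroblast-like and the Ttr-led cells) held 10.0%, 7.60% and 7.46% of control cells and 20.7%, 18.2% and 22.2% of mutant cells. They carried 72.1% to 76.5% of the Hes1 UMIs of controls and 80.8% to 90.1% of those of mutants. PN progenitor-like cells averaged 1.72% of control and 6.48% of mutant cells, and roof plate or dorsal rhombic lip-like cells made up 3.27% to 4.03% of control and 7.62% to 10.1% of mutant cells. When each cluster was given the same share in every library, the mutant-to-control ratio of mean Hes1 went from 2.56 to 1.20 and that of Hes5 from 2.08 to 1.39. With shares fixed, Hes1 was at 83.2, 85.1 and 70.2 CPM in controls and 96.2, 92.4 and 96.5 CPM in mutants, still without overlap, and Hes5 at 177, 104 and 113 CPM against 232, 130 and 187 CPM. The clusters were picked by their Hes1 level, so these shares are a description with no test. The cell filters kept 3248 of 7972, 6352 of 10407 and 6568 of 12869 barcodes in E14.5 control libraries 1 to 3. In the mutant libraries they kept 4773 of 9672, 6913 of 9000 and 6571 of 10812, a larger part in each pair. The part of the filters in the cell shares was not tested.

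**Figure D3:**
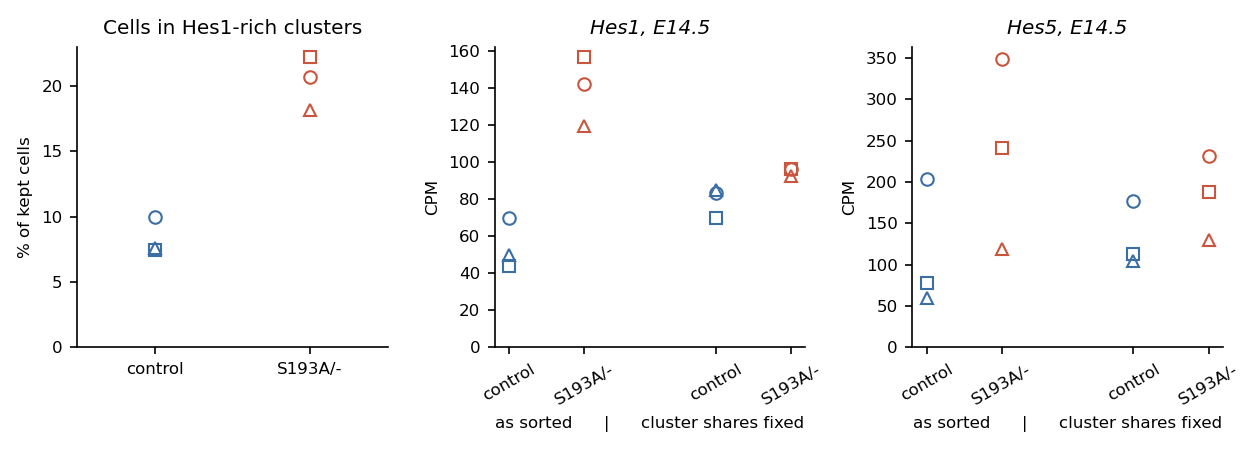
Left, percent of kept E14.5 cells in the 7 clusters with a control Hes1 mean over 200 CPM; middle and right, Hes1 and Hes5 in CPM over all kept cells as sorted and with cluster shares fixed, 1 symbol per library (shape gives the littermate pair). Mutant libraries lie at 18.2% to 22.2% and controls at 7.46% to 10.0%, and the distance between genotypes in Hes1 is smaller with shares fixed.

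At E18.5 the summed difference in Hes1 had the other sign. It was at 35.1, 53.4 and 36.0 CPM in controls and 27.6, 33.5 and 29.1 CPM in mutants, lower in all 3 pairs and without overlap, with a log2 change of -0.48 ± 0.19 (edgeR adjusted p = 1.00, and 0.0685 with pairing). Fixing the cluster shares left the ratio of means at 0.708, beside 0.725 as sorted. Hes5, Hes6 and Hey1 had log2 changes between -0.02 and 0.14. Of all genes 0% passed and 0 of 4 members (115 genes at an unadjusted p under 0.05, 13 called by DESeq2).

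Cycling Hox-low cells, taken by the same marker rule at both stages, showed the same turn. In controls of this class Ccnd1 was at 66.1 CPM at E14.5 and 355 CPM at E18.5, and Atoh1 at 166 and 55.6 CPM. The rule therefore did not take like cells at the 2 stages. At E14.5 the Hes1 of cycling Hox-low cells was at 34.2, 35.1 and 27.4 CPM in controls and 42.2, 60.7 and 54.8 CPM in mutants. At E18.5 it was at 57.1, 78.2 and 69.7 CPM in controls and 44.7, 50.9 and 54.7 CPM in mutants. The groups did not overlap at either stage, with the mutants higher at E14.5 and lower at E18.5. The log2 changes were 0.69 ± 0.16 and -0.47 ± 0.14 (edgeR adjusted p = 0.758 and 0.402), at E14.5 0.67 ± 0.19 without pair 2, and with pairing 0.71 ± 0.13 and -0.46 ± 0.058 (adjusted p = 0.0538 and 0.00519). DESeq2 called the E18.5 difference at an adjusted p of 0.0251.

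Hes5 in the E14.5 cycling Hox-low cells was at 111, 44.0 and 90.5 CPM in controls and 149, 91.6 and 261 CPM in mutants, higher in all 3 pairs. Its log2 change of 1.01 ± 0.17 with pairing passed (edgeR adjusted p = 0.0486), and the unpaired change of 1.04 ± 0.40 did not (adjusted p = 1.00), nor did that of 1.04 ± 0.27 without pair 2. At E18.5 Hes5 was at 85.2, 86.3 and 67.0 CPM in controls and 126, 90.5 and 76.5 CPM in mutants, again higher in all 3 pairs, and did not pass (0.29 ± 0.17, edgeR adjusted p = 1.00, and 0.239 with pairing). Hes6 was higher in all 3 pairs at both stages, by 0.20 ± 0.22 and 0.18 ± 0.049 on the log2 scale, and did not pass. At E14.5 0% of all genes passed without pairing (425 genes at an unadjusted p under 0.05, 11 called by DESeq2) and 0.563% with it, with 0 and 1 of 5 members. At E18.5 the shares were 0.372% and 1.6%, with 0 and 1 of 4 members.

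The difference between the stages was tested itself, as the interaction of genotype and stage over the 12 embryonic libraries. For Hes1 it was -1.81 ± 0.29 on the log2 scale over all kept cells (edgeR adjusted p = 0.161) and -1.16 ± 0.22 in cycling Hox-low cells (adjusted p = 0.683). With littermate pairs as blocks within each stage it was -1.79 ± 0.19 (adjusted p = 0.00541) and -1.17 ± 0.15 (adjusted p = 0.0319), and Hes5 over all kept cells was -0.97 ± 0.23 (adjusted p = 0.027). Without blocks 0% of all genes passed in either fit (794 and 445 genes at an unadjusted p under 0.05, 74 and 6 called by DESeq2, Hes1 among them in both). With blocks 18% passed over all kept cells, 2 of 5 members among them, and 0.0476% in cycling Hox-low cells, 1 of 5 members among them.

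**Figure D4:**
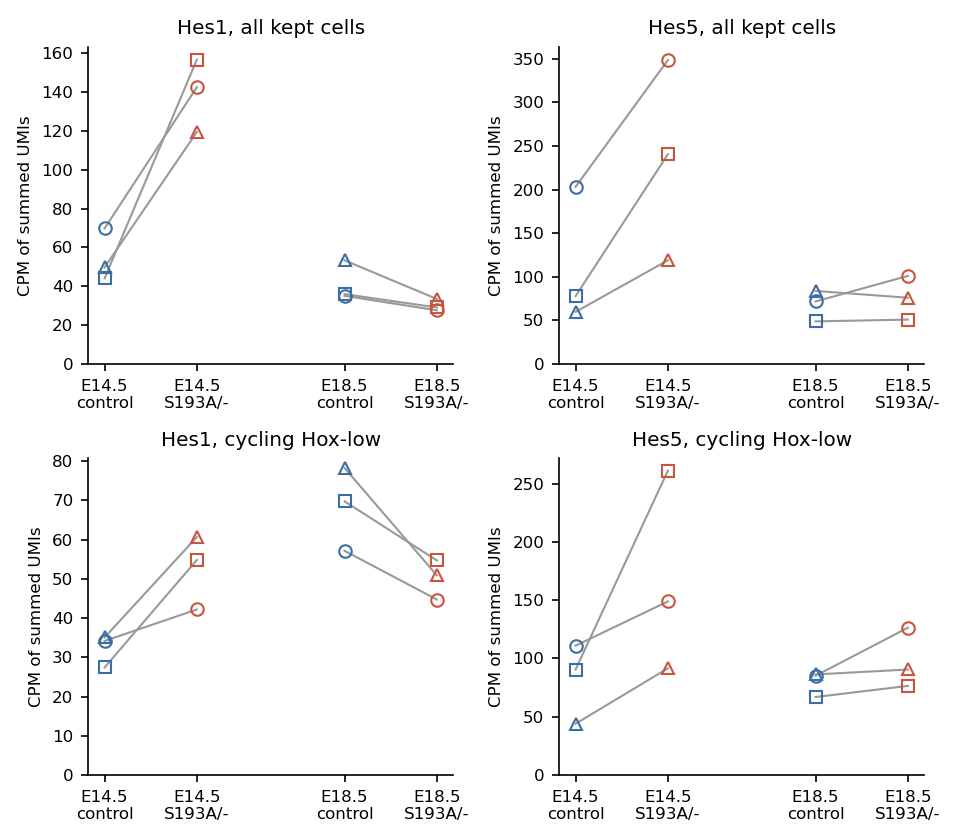
Hes1 and Hes5 (columns of panels) in CPM of summed UMIs over all kept cells and over cycling Hox-low cells (rows of panels) for each library by stage and genotype, with grey lines joining littermates and symbol shape giving the pair. Hes1 lines go up in all 3 pairs at E14.5 and down in all 3 pairs at E18.5.

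The last comparison set E18.5 controls against E14.5 controls, where stage and day of collection cannot be told apart, and where Cell Ranger version overlaps in part with stage, since 2 of the 3 E14.5 controls and 0 of the E18.5 controls were counted with 3.1.0. A total of 4 members changed in cycling Hox-low cells, in both directions. Hes1 went from 34.2, 35.1 and 27.4 CPM to 57.1, 78.2 and 69.7 CPM, a log2 change of 1.06 ± 0.15 (edgeR adjusted p = 0.000951), and Hey1 from 54.1, 30.6 and 36.2 CPM to 101, 100 and 78.6 CPM, a change of 1.16 ± 0.17 (adjusted p = 0.00128). Both genes had no overlap between stages. Hes6 fell from 776, 857 and 506 CPM to 217, 206 and 212 CPM, a log2 change of -1.79 ± 0.16 (adjusted p = 8.25e-05), and Nrarp from 11.4, 9.95 and 10.4 CPM to 4.40, 4.09 and 3.87 CPM, a change of -1.41 ± 0.14 (adjusted p = 0.000141). Hes5 stayed within its spread, at 81.8 ± 34.3 CPM and 79.5 ± 10.9 CPM. The 4 members called of 5 tested stand beside 36.9% of all genes. The 150 P5 cells of this class, in 1 library, had Hey1 at 173 CPM, above the E18.5 values, and Hes6 at 85.4, Nrarp at 1.92 (5 UMIs), Hes5 at 18.1 and Hes1 at 4.62 CPM, all below them, with no test.

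Among the other pathway genes in these cells, 6 of the 27 listed Notch genes tested rose and 5 fell, a share near the 36.9% of all genes called in the same fit, so the count says little of the pathway itself. Their median log2 change was 0.06, beside 0.01 over all genes. The ligands Dll1 and Jag1 fell by 2.54 ± 0.18 and 0.94 ± 0.28 on the log2 scale, and Maml3, a nuclear coactivator, rose by 0.66 ± 0.14 (edgeR adjusted p = 2.16e-05, 0.0264 and 0.00693). All 5 proneural genes tested were called, 2 up and 3 down, also beside 36.9% of all genes: Atoh1 fell by 1.61 ± 0.14 and Olig3 by 3.99 ± 0.22, while Nhlh1 rose by 1.69 ± 0.26 (adjusted p = 6.88e-05, 5.69e-06 and 0.00142). The class was made up of 1 cluster at E14.5 and 6 clusters at E18.5, and the 6 differed among themselves: Hes1 ran from 27.7 ± 4.35 to 254 ± 64.2 CPM, highest in the cluster led by Pvalb and Pdlim3, and Hes5 from 19.7 ± 0.802 to 136 ± 30.1 CPM. The part of this mix in the stage differences was not tested.

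**Figure D5:**
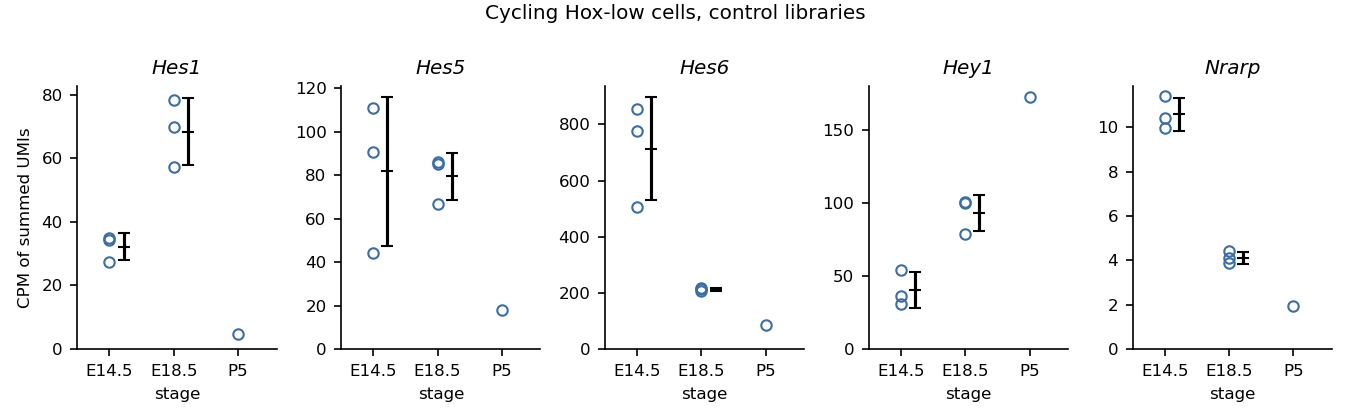
Levels of 5 genes in cycling Hox-low cells of control libraries at 3 stages (x axis) in CPM of summed UMIs (y axis, from 0), with circles for libraries and bars for the mean ± SD at the 2 embryonic stages. Hes6 and Nrarp lie lower, and Hes1 and Hey1 higher, in every E18.5 library than in every E14.5 library, and P5 is 1 library.

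Over all kept control cells, 1 of 4 members passed between the stages, beside 51.6% of all genes. Hes6 went from 349, 201 and 211 CPM to 173, 165 and 144 CPM, without overlap, a log2 change of -0.74 ± 0.20 (edgeR adjusted p = 0.0171). Without E18.5 control library 3 the change was -0.67 and no longer passed (adjusted p = 0.0542). Hes1, Hes5 and Hey1 had log2 changes of -0.47 ± 0.22, -0.81 ± 0.44 and 0.73 ± 0.34 and did not pass.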

How the data were processed

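Sorted TdTomato+ cells of 14 libraries were measured with the 10x Genomics 3′ assay. The deposited files hold raw UMI counts per gene and cell barcode, made by the authors with Cell Ranger (version 5.0.1 in 12 libraries and 3.1.0 in 2, per the file headers) on mm10 with an added reporter sequence. The counts were used as deposited. Cells with at least 1000 genes and under 5% mitochondrial UMIs were kept, and within each library the 7.5% of cells with the highest doublet scores (Scrublet in scanpy 1.11.5) were removed. Cells of each stage were clustered (2000 variable genes, 30 components, 15 neighbours, Leiden resolution 1) without the 6 genes and the listed Notch genes. Clusters were named from markers taken from the study and general knowledge, and some limits of the naming were set after seeing cluster means. The 6 genes and all lists were chosen with earlier results of these data known.

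UMIs were summed per library and class (at least 10 cells), scaled to 1000000 UMIs (CPM), and tested with edgeR 4.0.16 (TMM, quasi-likelihood) over genes detected in 10% or more of the cells in 1 of the groups, with Benjamini-Hochberg adjustment over all genes tested. A call needs an adjusted p under 0.05 and an absolute log2 change over 0.25, and the interaction needs the former only. Standard errors are the log2 change divided by the square root of the F statistic. The fits were tested on simulated counts. Alternatives were DESeq2 1.42.0, no filter on low counts, pairs as blocks, leaving out each library, a 10% mitochondrial limit and resolution 2. The paper's methods give each mutant a littermate control, while the labels give replicate numbers only. Same-numbered libraries deviated together from their group means (r = 0.53 to 0.82 at E14.5 and 0.78 to 0.92 at E18.5 over 3 pairs each). Other pairings gave -0.69 to 0.28 and -0.80 to 0.46. At E18.5, control 1 with mutant 2 gave 0.46 and control 2 with mutant 1 gave 0.39. Deviations cancel out within a genotype, so the r values of other pairings are not independent of those of same-numbered libraries. Littermate pairs were inferred from the numbers, and a shared litter and a shared batch cannot be told apart in these r values. Named genes are the 6 members, the most similar profiles, and called members of the fixed lists. UMIs do not correct for gene length, so levels are compared within a gene, and 3′ counts do not separate isoforms. Counting intervals and limits cover counting error only. Promoters come from RefSeq (3 of the 6 genes matched) and positions from GENCODE (6 of 6 matched by gene ID).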

Additional observations from a re-analysis of the deposited data

Results flagged for a closer look

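Over all kept cells and in cycling Hox-low cells, the Hes1 difference between genotypes had opposite directions at the 2 embryonic stages, which drew attention to it: all 3 littermate pairs were higher in the mutant at E14.5 and all 3 lower at E18.5. The interaction of genotype and stage was -1.81 on the log2 scale over all kept cells and -1.16 in cycling Hox-low cells, with edgeR adjusted p of 0.161 and 0.683 without pairing and 0.00541 and 0.0319 with littermate pairs as blocks. Over all kept E14.5 cells the share of cells in Hes1-rich clusters was also higher in mutants. With cluster shares fixed, E14.5 Hes1 was at 83.2, 85.1 and 70.2 CPM in controls and 96.2, 92.4 and 96.5 CPM in mutants, without overlap. At E18.5 the 2 clusters over the same Hes1 limit held 0.843%, 1.25% and 2.17% of control cells. They held 2.77%, 1.67% and 3.13% of mutant cells, so this share was higher in the mutant of all 3 pairs at E18.5 too. In cycling Hox-low cells, 1 cluster at E14.5 faced 6 clusters at E18.5, and the part of that mix in the turn was not tested. Glia or radial glia-like cells did not show the turn: Hes1 was higher in the mutant of 2 of 3 pairs at both stages, at 458, 273 and 330 against 450, 294 and 401 CPM at E14.5 and at 455, 353 and 177 against 291, 382 and 291 CPM at E18.5.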

How the results depend on the processing

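In tests run with the main settings where a member was called at least 1 time, no alternative turned the direction of its change. Changes never called were not checked for direction. Numbers of members called depended on the model. In the E14.5 PN-like states 0 were called in the unpaired edgeR fit, 2 with DESeq2, 2 without the filter on low counts and 4 with the replicate block. In the E18.5 states 0 were called, and 1 with the 10% mitochondrial limit, under which intermediate progenitor-like cells could be tested (Hes1 -1.72, adjusted p = 0.0262, 1 of 4 members beside 0.274% of all genes). Over all E14.5 cells 0 were called, 1 with DESeq2 and 3 with the block. In cycling Hox-low cells 0 were called, 1 with DESeq2, 2 without the filter and 2 with the block, and for the interaction 0, 2 with DESeq2, 1 without the filter and 3 with the block of littermate pairs, which was chosen after seeing the data. In the fits with a member called, DESeq2 called between 0.0522% and 2.44% of all genes, and the fits without the filter between 0.0206% and 0.767%. The block changed no other call. The 5 stage calls stayed at a count within 1.5 times under each alternative, and Hes6 over all kept cells lost its call without E18.5 control replicate 3. Leaving out littermate pair 2, added after seeing the data, gave 0 calls. Those fits were unpaired, and the unpaired E14.5 fits with all 3 pairs also called 0 members and at most 0.0659% of all genes. The 0 calls without pair 2 therefore say nothing about the stability of the paired calls. Keeping only Cell Ranger 5.0.1 libraries also gave 0, but left 1 E14.5 control, assumed to vary like the mutants, so that count says nothing about stability. An E18.5 progenitor-like class was not found with the 5% limit at resolution 1. It was found with the 10% limit and at resolution 2, where 0 of 5 members passed (Hes5 0.03 ± 0.19 and 0.10 ± 0.18, Hes1 -0.33 ± 0.24 and 0.12 ± 0.27). The share of all genes passing there is not given, so that count says nothing of the members themselves. The E18.5 intermediate progenitor-like test was not run with the 5% limit for lack of libraries with 10 cells. For members called in at least 1 setting, 234 repeats of a test kept their side of the threshold, 28 newly passed and 1 was lost. Over the other cell limits and resolution, 68 single levels moved by at most 1 SD and 10 by more. Cell shares were compared only with and without thinning, where 5 moved by at most 1 SD and 25 by more. Nrarp, Heyl and Hes1 in neurons rest on few UMIs per library, which limits what could be seen of them.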
